A study of Sus scrofa with 42 samples.

Results

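The spliceosome and hnRNP genes were the protein-coding genes of the expression table whose symbol began with SNRP, SF3A, SF3B, PRPF, SRSF, HNRNP or U2AF, or consisted of LSM and 1 digit. They numbered 59 of 15351 genes, with 6 SNRP, 8 SF3, 11 PRPF, 8 LSM, 11 SRSF, 14 HNRNP and 1 U2AF gene. Of these, 54 reached 1 FPKM in at least 3 blastomeres and entered the tests, and PRPF6, PRPF31, LSM2, LSM5 and U2AF2 did not. Other genes of these families, U2AF1, HNRNPC and SNRPB among them, are not analysed here.

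Introns are removed from pre-mRNA by the spliceosome, which is built from the U1, U2, U4, U5 and U6 small nuclear RNAs and their proteins. U1 first pairs with the 5′ splice site, the U2AF dimer and the SF3A and SF3B complexes bring U2 to the branch point, and the tri-snRNP of U4, U6 and U5 then completes the machine. SR proteins (SRSF genes) mostly promote exon recognition by binding exonic enhancers, and hnRNP proteins coat nascent transcripts and often oppose them. The oocyte stores mRNA that has already been spliced, whereas genes switched on in the embryo must have their introns removed in each blastomere.

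The embryos were pig embryos made in vitro by fertilization (IVF, oocytes incubated with sperm) or by parthenogenetic activation (PA, oocytes given an electric pulse and then 6-dimethylaminopurine and cytochalasin B, so that the genome is maternal only). Both methods used oocytes matured in vitro from the ovaries of gilts, and the strain is not given in the sources used here. Counting from sperm removal or the pulse, embryos were taken as 1 cell after 19 h, as 2 cells after 27 h, as 4 cells after 48 h and as 8 cells after 72 h, and single cells were sequenced. Each method had 3 embryos at the 1-, 2- and 4-cell stages, with 3, 6 and 9 sequenced cells, and 1 embryo with 3 cells at the 8-cell stage, giving 42 cells of 20 embryos in 8 groups. The embryo was the unit of replication, so a value for an embryo is the mean of its blastomeres, and the 8-cell embryos were assumed to vary like the others. From Y chromosome levels the paper regarded the IVF 8-cell embryo and most IVF 4-cell embryos as male and all PA embryos as female. Sex thus differed with method at these stages, and its part in the results was not tested.

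Promoter sequences are shown for 5 members with a call between groups, chosen after their values were seen. SNRPA separated IVF from PA zygotes, SF3B5, LSM4 and HNRNPH1 were higher in the PA 8-cell than in the PA 4-cell embryos, and HNRNPU was higher in IVF than in PA 4-cell embryos. Each window holds the 200 bases before the 5′ end that the expression table gives, read 5′ to 3′ on the gene's strand from the RefSeq copy of Sscrofa11.1. The windows lie at chr6:48971668-48971867 (plus strand), chr1:21231086-21231285 (plus strand), chr2:59499382-59499581 (plus strand), chr10:17497131-17497330 (minus strand) and chr2:78961256-78961455 (plus strand). Capitals mark matches, on either strand, to 6 motifs: CCAAT box (CCAAT), Sp1 (GGGCGG), ETS (CCGGAAG), NRF1 (GCATGCGC), TATA box (TATAAA) and the PRD-like homeobox word GGATTA.
SNRPA: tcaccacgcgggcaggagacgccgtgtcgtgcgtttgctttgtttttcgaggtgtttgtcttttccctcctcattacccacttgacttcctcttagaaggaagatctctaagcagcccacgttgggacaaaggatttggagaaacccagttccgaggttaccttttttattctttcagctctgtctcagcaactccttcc
SF3B5: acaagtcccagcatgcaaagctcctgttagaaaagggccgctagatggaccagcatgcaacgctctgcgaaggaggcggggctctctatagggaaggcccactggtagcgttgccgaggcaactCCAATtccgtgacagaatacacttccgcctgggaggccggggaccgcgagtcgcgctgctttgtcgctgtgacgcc
LSM4: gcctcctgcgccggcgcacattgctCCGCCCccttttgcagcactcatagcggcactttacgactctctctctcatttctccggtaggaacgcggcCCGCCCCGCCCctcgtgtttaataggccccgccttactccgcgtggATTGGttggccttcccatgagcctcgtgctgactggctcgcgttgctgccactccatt
HNRNPU: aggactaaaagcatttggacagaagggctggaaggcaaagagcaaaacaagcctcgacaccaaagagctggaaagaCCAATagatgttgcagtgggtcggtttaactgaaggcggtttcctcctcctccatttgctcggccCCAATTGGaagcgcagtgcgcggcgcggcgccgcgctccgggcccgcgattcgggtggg
HNRNPH1: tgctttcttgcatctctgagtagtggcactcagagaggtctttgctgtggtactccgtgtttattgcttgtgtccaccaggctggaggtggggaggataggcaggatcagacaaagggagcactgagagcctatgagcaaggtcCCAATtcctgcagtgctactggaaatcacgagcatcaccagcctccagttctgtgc

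The SF3B5, HNRNPU and HNRNPH1 windows held CCAAT boxes, the LSM4 window held Sp1 words and a CCAAT box in reverse, and the SNRPA window held none of the 6 motifs. In HNRNPU the last capital run holds 2 CCAAT matches that overlap, 1 on each strand. Over the 59 members, 24 windows (40.7%) held a CCAAT box and 30 (50.8%) an Sp1 word, against 27.3% and 43.7% of the 14920 windows of all genes. The ETS word was in 13.6% of member windows and 8.26% of all windows, the NRF1 word in 5.08% and 2.1%, the TATA word in 10.2% and 7.33%, and the homeobox word in 5.08% and 4.14%. The median GC content was 62.0% for members and 59.5% for all genes, and the median number of CpG pairs was 17 and 11. For 33 members the 5′ end lay within 100 bases of that of the RefSeq gene, so other windows may miss the transcription start.

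Reads on genes ranged from 5626746 to 19421954 per cell, and 1 FPKM of the median member stood for 49.6 to 185 reads across cells. Single members differed from this. In IVF 4-cell blastomere 3-1, 6802 reads of SF3B5 made 539.7 FPKM. In IVF 1-cell embryo 1, 20504 reads of HNRNPU made 81.3 FPKM. FPKM is a share of a cell's reads, so an mRNA that was gained and one that was lost more slowly than the rest cannot be told apart. Mitochondrial genes took 6.07% to 19.2% of FPKM in 1-cell embryos and 26.9% to 53.6% in 8-cell blastomeres, and their part in the results was not tested. The 9 oocyte markers in the table summed to 513 to 1574 FPKM in embryos of 1 to 4 cells and to 75.8 (IVF) and 26.96 (PA) FPKM at the 8-cell stage, whereas 6 cumulus cell markers summed to at most 2.13 FPKM. PA 4-cell blastomeres 1-4 and 2-1 had nearly the same values as PA 2-cell blastomeres 1-2 and 2-1 (r = 0.9985 and 0.9988, against at most 0.9079 for any of the other pairs among 861). Most member medians and calls of the PA 4-cell stage are therefore given with and without these 2 cells. Embryo values, family sums, shares of nuclear FPKM, interactions and results of other splicing genes include them. Of the 59 members, 26 overlap a gene on the opposite strand, HNRNPA2B1, SRSF2, HNRNPH1, HNRNPH2, PRPF38A, PRPF4 and HNRNPU among them, and 4 overlap one on the same strand, PRPF8 among them. Over the 42 cells log2(FPKM + 1) correlated with that of the overlapping gene at r = 0.94 for SNRPF (CCDC38), 0.90 for PRPF40B (FMNL3), 0.42 for SRSF5 (SLC10A1) and 0.41 for LSM8 (CTTNBP2), and at -0.35 to 0.33 for the other pairs. These are descriptions over cells that share embryos, and whether reads were counted by strand is not given in the sources used here.

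The members together took a small share of the transcriptome, which was higher in several of the later embryos. Their summed level was 403, 539 and 526.2 FPKM in the IVF 1-cell embryos and 468, 380.1 and 478 FPKM in the IVF 2-cell embryos. At the IVF 4-cell stage it was 389.9, 1947 and 1551 FPKM, and in the IVF 8-cell embryo it was 1249 FPKM. IVF 4-cell embryos 2 and 3 thus lay above every earlier embryo, and embryo 1 lay within their range. In PA embryos the sum was 340.5, 405 and 426 FPKM at the 1-cell, 381, 341 and 399.7 FPKM at the 2-cell, 397, 630.2 and 774 FPKM at the 4-cell and 1393 FPKM at the 8-cell stage. PA 4-cell embryos 2 and 3 lay above every earlier PA embryo and below IVF 4-cell embryos 2 and 3. The log2 ratio of the mean sums of PA 4-cell over 2-cell embryos was 0.68, and 0.78 without the repeated cells. As a share of nuclear FPKM, the members were between 0.357% and 0.468% in all 1- and 2-cell embryos, at 0.401%, 1.47% and 1.30% in IVF and 0.426%, 0.634% and 0.949% in PA 4-cell embryos, and at 0.875% (IVF) and 1.10% (PA) at the 8-cell stage.

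**Figure D1:**
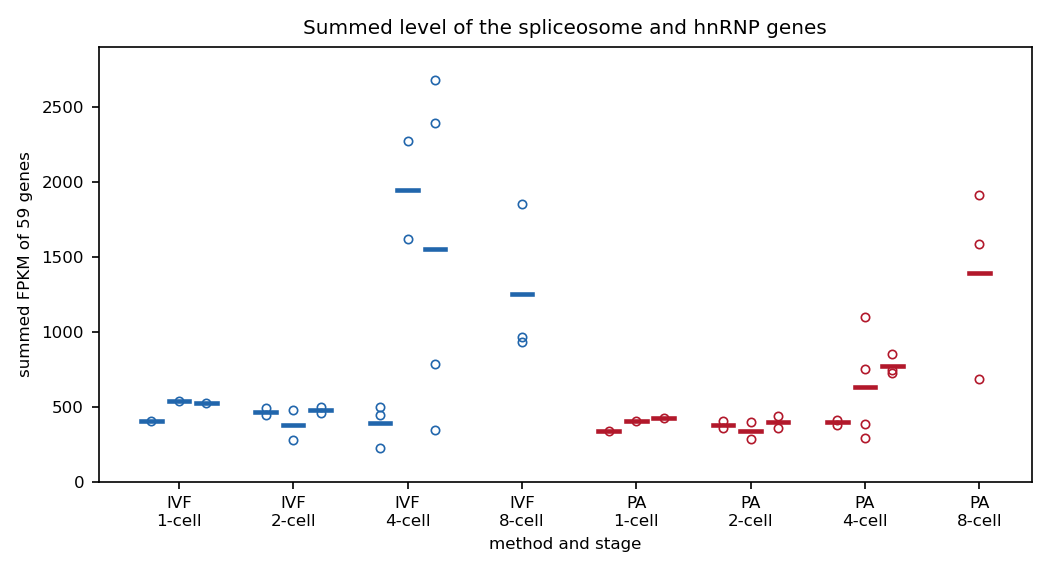
Summed FPKM of the 59 spliceosome and hnRNP genes (y axis) in each of the 20 embryos (x axis, 1 column per embryo, by method and stage). Circles are single blastomeres and bars are embryo means. The 4-cell and 8-cell embryos reach from 389.9 to 1947 FPKM, whereas the 1- and 2-cell embryos lie between 340.5 and 539 FPKM.

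Blastomeres of 1 embryo differed widely in this sum. In IVF 4-cell embryo 3 the 4 blastomeres held 2396, 787, 345 and 2677 FPKM, and in PA 4-cell embryo 2 they held 289, 1096, 386 and 749.8 FPKM. Fewer members reached 1 FPKM per cell at the later stages than in zygotes. The median number of members at 1 FPKM or more per cell was 39, 30.5, 29 and 21 from the IVF 1-cell to the IVF 8-cell stage, and 37, 21.5, 22 and 25 in PA (19 at the PA 4-cell stage without the repeated cells). Over all genes the median share at 1 FPKM or more went from 37.5% to 13.3% in IVF and from 31.5% to 11.7% in PA. In every cell the 5 highest members made up 47.6% to 86.5% of the sum.

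**Figure D2:**
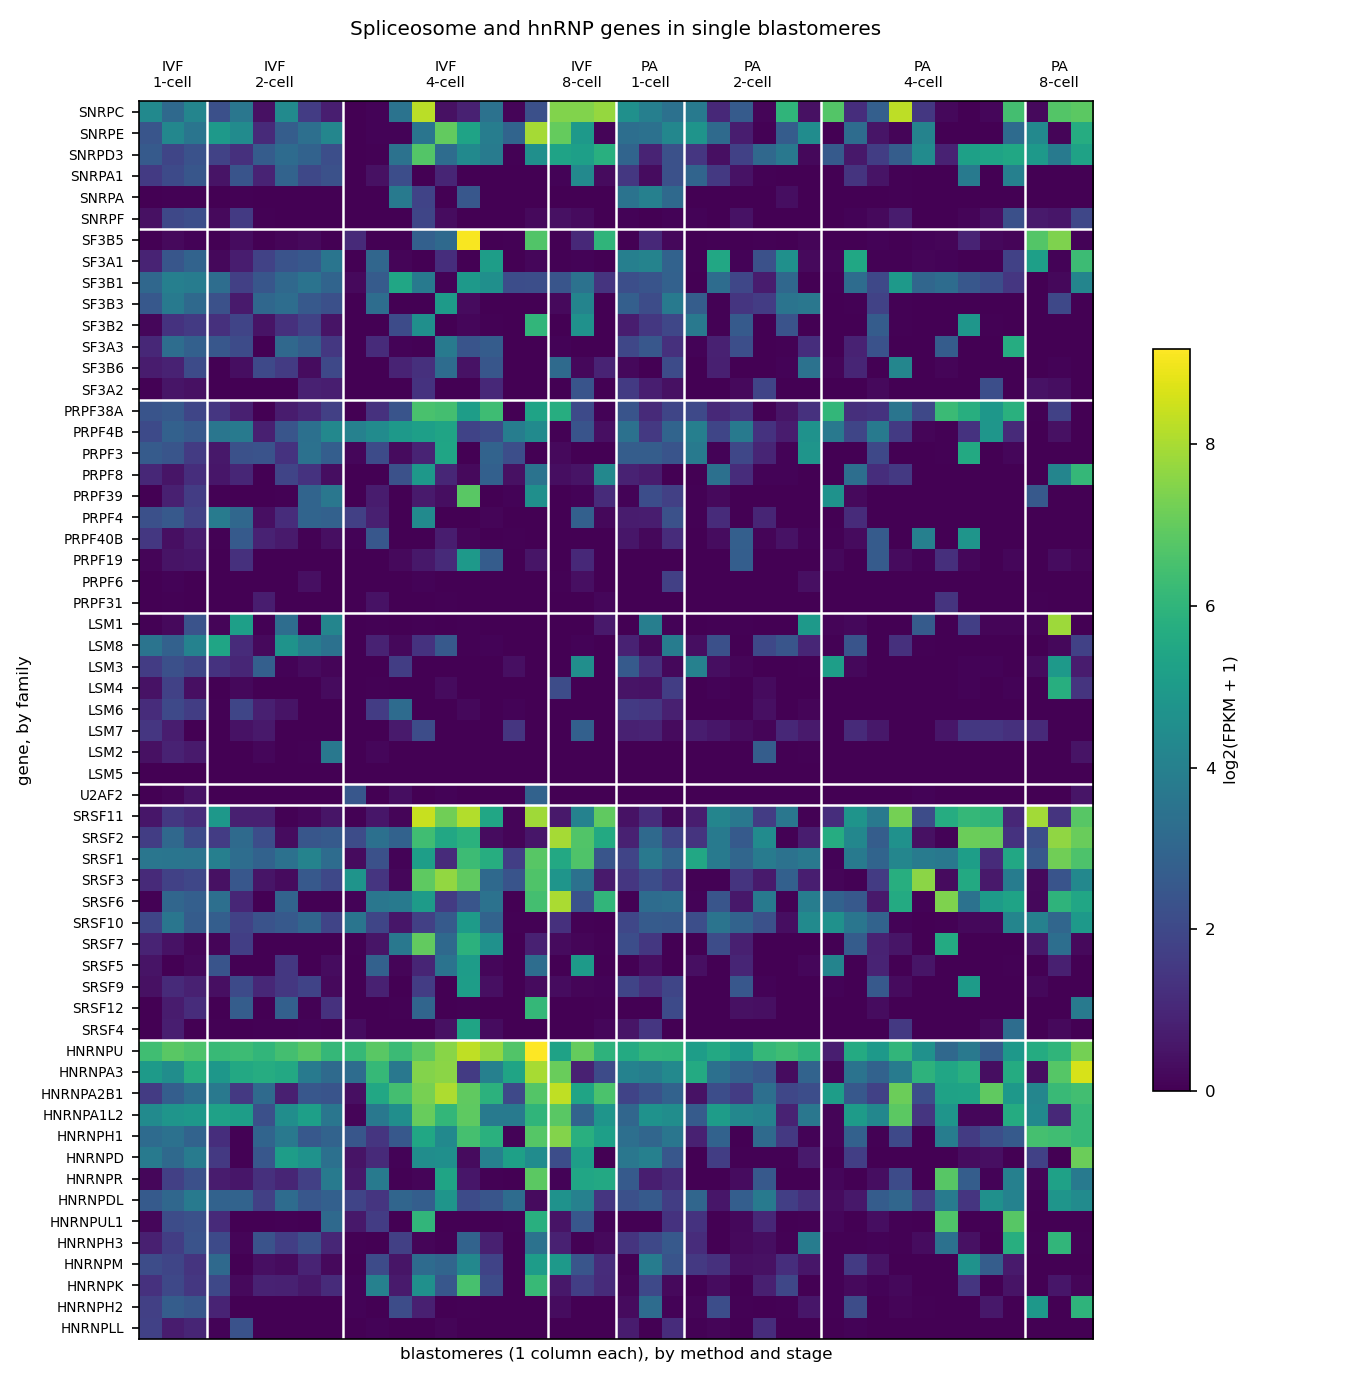
Level of 58 of the 59 members (y axis, grouped by family) in each of the 42 blastomeres (x axis, by method and stage), as colour on the log2(FPKM + 1) scale. HNRNPU is high in most cells, while many members are high in some blastomeres of an embryo and near 0 in the next.

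Differences between groups were tested with limma on log2(FPKM + 1) over all 8116 genes that passed the filter. A gene was called where its Benjamini-Hochberg adjusted p was below 0.05 and its fold change at least 2, and all log2 fold changes are on that scale, which understates changes of low genes. In IVF 2-cell over 1-cell embryos no member was called (0.0% of all genes were called), and 3 had an unadjusted p below 0.05 (HNRNPH2, SNRPF and LSM1, with log2 fold changes of -2.12, -1.17 and 2.43 and adjusted p = 1). From the IVF 2-cell to the 4-cell stage 1 of the 54 members was called, and it rose (1.11% of all genes called). The median log2 fold change there was 0.67 for members and -0.23 for all genes, and 40 of 54 members (74.1%) had a value above 0 against 41.4% of all genes. With means of log values over blastomeres these medians were 0.15 and -0.43. They were 0.57 and -0.25 with nuclear genes at the same total, and 1.74 and 0.19 under median ratio scaling. From the IVF 4-cell to the 8-cell stage no member was called (6.97% of all genes called, 5 members at an unadjusted p below 0.05), with medians of 0.04 and -0.38. In IVF 8-cell over 1-cell embryos 4 members rose and 1 fell (14.3% of all genes called), with medians of 0.12 and -0.77, so the share of members called was below that of all genes. The member median there was -0.38 with means of log values over blastomeres, -0.05 with nuclear genes at the same total and 1.72 under median ratio scaling, and that of the 8-cell over the 4-cell stage was -0.22, -0.04 and 1.03.

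In PA embryos 1 member fell from the 1-cell to the 2-cell stage (0.0986% of all genes called), with a median log2 fold change of -0.37 for members and -0.09 for all genes. None was called from the 2-cell to the 4-cell stage (0.394% of all genes called, 7 members at an unadjusted p below 0.05), with medians of 0.18 and -0.17. Without the 2 repeated cells 2 members rose there, and the medians were -0.03 and -0.45. From the PA 4-cell to the 8-cell stage 6 rose and 1 fell (9.99% of all genes called), and in PA 8-cell over 1-cell embryos 8 rose and 1 fell (13.8% of all genes called). The medians of these last comparisons were 0.32 against -0.15 and 0.73 against -0.58. Without the repeated cells the former were 0.60 and -0.0029. The latter median of members was -0.06 with means of log values and 2.72 under median ratio scaling. All 7 calls over the 4-cell stage held without the repeated cells, and PRPF8 (log2 fold change 4.65, adjusted p = 0.00982) and SF3A1 were then called as well.

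A few embryos and settings set these counts. For the fits below and those without the repeated cells, the share of all genes called is not given here. Whether a count moved for the members in particular therefore cannot be told. Beside fits that left out 1 embryo, 8 other settings were tried, namely a pseudocount of 0.1, no filter, 2 other scalings, means of log values over blastomeres, fits of only the compared groups, the embryo number as a block and omission of the repeated cells. Without IVF 4-cell embryo 1, whose summed member level was the lowest of its group, 8 members were called in IVF 4-cell over 2-cell embryos, and without IVF 2-cell embryo 2 or embryo 3 none was. Leaving out the same IVF 4-cell embryo gave 7 calls in place of 2 between methods at the 4-cell stage, 8 in place of 5 in IVF 8-cell over 1-cell embryos and 2 in place of 0 in IVF 8-cell over 4-cell embryos. In IVF 8-cell over 1-cell embryos the count was 1 without IVF 1-cell embryo 1 and 2 without embryo 3. In PA 4-cell over 2-cell embryos it was 3 without PA 4-cell embryo 1, and in PA 8-cell over 1-cell embryos 4 without PA 1-cell embryo 1 or embryo 3. When only the groups compared entered the fit, no member was called between the 1- and 2-cell, the 2- and 4-cell or the 4- and 8-cell stages of either method, nor between methods. Scaling each embryo by the median ratio of its genes moved the median log2 fold change of all genes in IVF 8-cell over 1-cell embryos from -0.77 to -0.06, and raised the members called from 5 to 13 there and from 9 to 22 in PA 8-cell over 1-cell embryos. With nuclear genes scaled to the same total, the calls of SRSF2, SRSF5 and SRSF6 in IVF 8-cell over 1-cell embryos (adjusted p = 0.0530, 0.0769 and 0.0580), of LSM1 in PA 8-cell over 1-cell embryos (0.0646) and of HNRNPH1 in PA 8-cell over 4-cell embryos (0.0596) were lost.

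**Figure D3:**
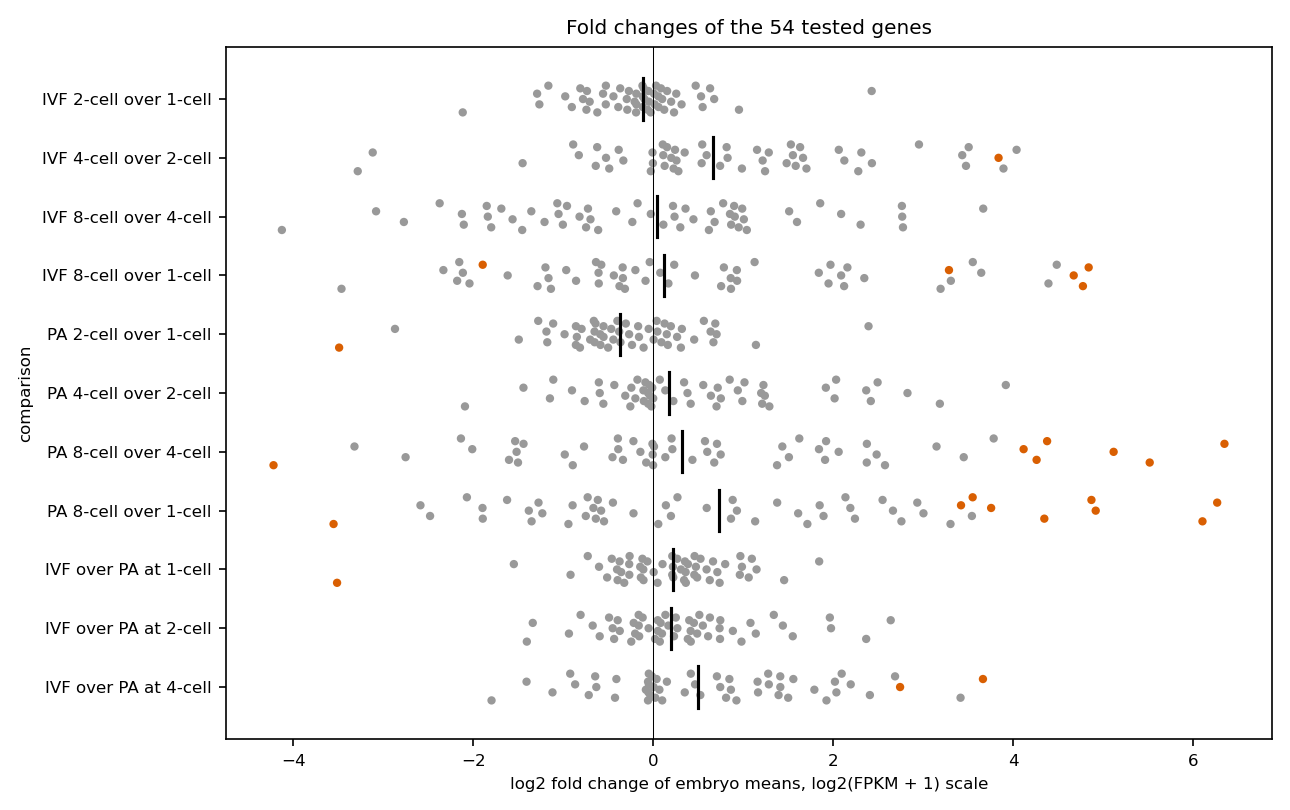
Log2 fold change of the 54 tested members (x axis, from log2(FPKM + 1)) in 11 comparisons between stages or methods (y axis). Each point is a gene, orange points are called genes and the black bar is the median member. The median lies at 0.67 for IVF 4-cell over 2-cell and at 0.73 for PA 8-cell over 1-cell embryos.

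Among the U1 and Sm proteins (SNRP genes), SNRPA showed the clearest difference between fertilized and parthenogenetic zygotes. SNRPA (ENSSSCG00000002998, chr6:48971868-48982369) encodes the A protein of the U1 particle, which binds a stem loop of the U1 RNA. It was at 10.3, 15.1 and 7.89 FPKM in the PA 1-cell embryos and at 0, 0.0398 and 0.0428 FPKM in the IVF 1-cell embryos, from 205 to 480 reads in each PA zygote and at most 1 read in each IVF zygote. No IVF value reached a PA value, and the gene was lower in IVF (log2 fold change -3.51 ± 0.49 SE, adjusted p = 0.00621, 0.0493% of all genes called and no other member). By the PA 2-cell stage it was at 0, 0 and 0.137 FPKM, below every PA 1-cell embryo (log2 fold change -3.49 ± 0.49 SE, adjusted p = 0.00681). In the 8-cell embryos of both methods it was listed at 0, and the PA 8-cell over 1-cell difference also passed the test (adjusted p = 0.00198), although its fitted size depends on the pseudocount. The difference between methods was not called without IVF 1-cell embryo 2 (adjusted p = 0.0561), and the fall from the PA 1-cell to the 2-cell stage was not called without PA 2-cell embryo 2 (adjusted p = 0.0505).

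SNRPA was also detected at the IVF 4-cell stage, at 4.22, 1.31 and 1.14 FPKM, against 0, 0.0123 and 0 FPKM in the PA 4-cell embryos. A single blastomere carried the value of each IVF embryo (12.7 FPKM in 1-4, 2.62 FPKM in 2-2 and 4.57 FPKM in 3-1), and the others were at 0. The methods did not overlap at the 4-cell stage, but the difference was not called (log2 difference 1.56 ± 0.49 SE, adjusted p = 0.139). It was called under median ratio scaling (1.61, adjusted p = 0.0252). SNRPC, the C protein of the U1 particle that contacts the 5′ splice site, was the highest SNRP gene. It was at 19.4, 7.79 and 16.9 FPKM in IVF 1-cell, 7.61, 10.1 and 1.41 FPKM in IVF 2-cell, 3.41, 148 and 3.67 FPKM in IVF 4-cell embryos and 184 FPKM in the IVF 8-cell embryo. The PA values were 23.3, 14.6 and 9.62 FPKM, 6.94, 2.62 and 31.6 FPKM, 53.3, 79.3 and 28.6 FPKM and 74.3 FPKM at the same stages. Only IVF 4-cell embryo 2 stood high in its group, and no comparison of SNRPC was called. Its IVF 8-cell blastomeres held 171, 172 and 209 FPKM, and with means of log values it was called over the IVF 4-cell (log2 fold change 5.13, adjusted p = 0.00901) and the IVF 1-cell embryos (3.64, adjusted p = 0.0261). The latter was called as well when only the compared groups entered the fit (3.65, adjusted p = 0.0431). Under median ratio scaling SNRPC was called in IVF 8-cell over 4-cell, IVF 8-cell over 1-cell, PA 4-cell over 2-cell and PA 8-cell over 1-cell embryos (5.41 to 6.87, highest adjusted p = 0.0118) and was lower in IVF than in PA 4-cell embryos (-4.60, adjusted p = 0.0177). SNRPE, a subunit of the Sm ring, was likewise at 0.0473, 67.2 and 76.9 FPKM in the IVF 4-cell embryos, high in embryos 2 and 3, and at 52.7 FPKM in the IVF 8-cell embryo.

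Of the U2 branch point factors (SF3 genes), SF3B5 (ENSSSCG00000035578, chr1:21231286-21232011), a small subunit of the SF3B complex, was close to 0 until late and then high in the PA 8-cell embryo. It was at 0, 1.08 and 0.158 FPKM in PA 1-cell, 0.0231, 0.0212 and 0.0492 FPKM in PA 2-cell and 0, 0.0519 and 0.377 FPKM in PA 4-cell embryos. In the PA 8-cell embryo it reached 91.3 FPKM, with blastomeres at 106, 168 and 0.0612 FPKM, so 1 of the 3 was near 0. SF3B5 rose over the PA 4-cell (log2 fold change 6.35 ± 1.54 SE, adjusted p = 0.0111) and the PA 1-cell stage (log2 fold change 6.11 ± 1.54 SE, adjusted p = 0.0127). Both calls held with any single embryo of the 1- to 4-cell stages left out, whereas the only PA 8-cell embryo could not be left out. In IVF it was already present at the 4-cell stage, at 0.371, 6.98 and 160.2 FPKM, where embryo 3 stood above the others, and at 21.5 FPKM in the 8-cell embryo. SF3A1, a subunit of the SF3A trimer of the U2 particle, was at 21.4, 0.0559 and 0.810 FPKM in PA 4-cell embryos and at 37.3 FPKM in the PA 8-cell embryo, a difference that was not called with all cells and was called without the repeated cells (log2 fold change 4.91, adjusted p = 0.0203). None of the 8 SF3 genes was called in IVF embryos, where SF3B5 in 8-cell over 1-cell embryos had a log2 fold change 4.39 ± 1.54 SE, adjusted p = 0.0613. It was called there under 4 of the 8 other settings, namely a pseudocount of 0.1, median ratio scaling, fits of only the compared groups and the embryo block (4.39 to 7.07, adjusted p = 0.0124 to 0.0419), and from the IVF 2-cell to the 4-cell stage with means of log values (2.32, adjusted p = 0.0376).

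Among the tri-snRNP and pre-mRNA processing factors (PRPF genes), PRPF38A, a factor of the tri-snRNP needed for activation, was high at the PA 4-cell stage alone among the PA groups. It was at 2.08, 0.853 and 0.964 FPKM in PA 2-cell and 34.2, 22.6 and 45.8 FPKM in PA 4-cell embryos, with no overlap. The difference was not called with all cells (log2 fold change 3.92 ± 0.93 SE, adjusted p = 0.0739) and was called without the repeated cells (4.36, adjusted p = 0.00732). In the PA 8-cell embryo it was at 0.817 FPKM, below every PA 4-cell embryo, and it fell (log2 fold change -4.22 ± 1.31 SE, adjusted p = 0.0463). The fall was not called when any 1 of the 12 embryos of the 1- and 2-cell stages or any PA 4-cell embryo was left out (highest adjusted p = 0.0800), and in 5 of the 8 other settings (highest 0.144). IVF embryos held PRPF38A at 1.89, 88.9 and 38.1 FPKM at the 4-cell and 18.2 FPKM at the 8-cell stage.

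PRPF8, the scaffold at the heart of the catalytic centre, was at 0.849, 0.642 and 0.00890 FPKM in the PA 1-cell embryos and at 28.6 FPKM in the PA 8-cell embryo, whose blastomeres held 0.0104, 17.0 and 68.7 FPKM. It rose over this interval (log2 fold change 4.35 ± 1.21 SE, adjusted p = 0.0224), and the call was lost without PA 1-cell embryo 3 (adjusted p = 0.0562) or with a pseudocount of 0.1 (0.0680). PRPF4B, a kinase of the tri-snRNP, was at 22.1, 37.6 and 9.92 FPKM in IVF 4-cell embryos and at 1.52 FPKM in the IVF 8-cell embryo (log2 fold change -3.08 ± 1.06 SE, adjusted p = 0.0922), a difference that was called without IVF 4-cell embryo 3 (adjusted p = 0.0464).

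The LSM genes encode the rings that bind U6 in the nucleus (LSM2 to LSM8) and decapping substrates in the cytoplasm (with LSM1). They were low in most embryos, and LSM4 and LSM1 rose in the PA 8-cell embryo. LSM4 (ENSSSCG00000034314, chr2:59499582-59513226) was at 0.397, 0.348 and 2.16 FPKM in PA 1-cell embryos, at most 0.105 FPKM in the PA 2-cell and 4-cell embryos and 18.4 FPKM in the PA 8-cell embryo. The PA 8-cell blastomeres held 0, 53.6 and 1.63 FPKM, so most of the level came from 1 cell. LSM4 rose over the PA 4-cell stage (log2 fold change 4.26 ± 0.64 SE, adjusted p = 0.000243) and the PA 1-cell stage (log2 fold change 3.42 ± 0.64 SE, adjusted p = 0.00139). Both calls held with any single embryo of the 1- to 4-cell stages left out, whereas the PA 8-cell embryo itself could not be left out. The rise over the PA 1-cell stage was 1.53 with means of log values (adjusted p = 0.0677) and was not called there, with a pseudocount of 0.1 (0.0569) or with only the compared groups (0.0867). LSM1 was at 0, 14.3 and 0.0602 FPKM in PA 1-cell and 0.119, 1.30 and 0.810 FPKM in PA 4-cell embryos and at 75.6 FPKM in the PA 8-cell embryo, from blastomeres at 0.0791, 227 and 0 FPKM. A single blastomere thus carried the value.

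LSM1 rose over the PA 4-cell (log2 fold change 5.52 ± 1.58 SE, adjusted p = 0.0310) and the PA 1-cell embryos (log2 fold change 4.92 ± 1.58 SE, adjusted p = 0.0446), but the first call was lost without PA 4-cell embryo 1 (adjusted p = 0.0637) and the second without IVF 1-cell embryo 1 or 2, any IVF 2-cell embryo, IVF 4-cell embryo 3, PA 1-cell embryo 1 or 3, or PA 4-cell embryo 2 (highest adjusted p = 0.118) and without the repeated cells (0.0504). With means of log values the changes were 2.16 (adjusted p = 0.517) and 1.31 (0.509). The calls were lost in 4 and 6 of the 8 other settings. In IVF the levels of LSM1 were 0.0375, 0.187 and 4.05 FPKM, 17.9, 4.41 and 8.48 FPKM, 0.0112, 0.0243 and 0.0113 FPKM and 0.183 FPKM from the 1-cell to the 8-cell stage, so it was highest in the 2-cell embryos. LSM8, the subunit specific to the nuclear ring, was at 20.9, 12.6 and 11.7 FPKM in the IVF embryos and at 2.01, 1.49 and 2.69 FPKM in PA embryos of the 2-cell stage, with no overlap. That difference had the lowest p of the members at the 2-cell stage and was not called (log2 fold change 2.37 ± 0.89 SE, adjusted p = 0.844). LSM5 was listed at 0 in all 42 cells. Its entry, chr13:138268279-138268497, had no RefSeq gene of that name on the same chromosome and strand, so the 0 may not describe LSM5 itself. U2AF2, the large U2AF subunit that binds the polypyrimidine tract, was at most 1.62 FPKM in any embryo.

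The summed level of the SR protein genes was higher at the 8-cell stage than in any zygote of either method. It was 31.5 FPKM in IVF 1-cell, 34.4 FPKM in IVF 2-cell, 331 ± 276 FPKM (SD, n = 3) in IVF 4-cell embryos and 361 FPKM in the IVF 8-cell embryo. IVF 4-cell embryo 1, at 36.5 FPKM, lay within the range of the earlier IVF embryos (19.3 to 50.9 FPKM). The PA sums were 30.0, 46.4, 174 and 381 FPKM. From the IVF 2-cell to the 4-cell stage all 11 SRSF genes had a log2 fold change above 0 (41.4% of all genes), with a median of 1.70, and all 11 were also above 0 under both other scalings. None was called on its own, except SRSF7 with means of log values (2.79, adjusted p = 0.0380). In IVF 8-cell over 1-cell embryos 6 of the 11 lay above 0 (29.6% of all genes), in IVF 8-cell over 4-cell embryos 5 of 11 (32.3%) and in PA 8-cell over 1-cell embryos 9 of 11 (30.4%).

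SRSF2 (SC35), which marks nuclear speckles, was at 2.15, 7.54 and 3.21 FPKM in IVF 1-cell embryos and at 132 FPKM in the IVF 8-cell embryo (log2 fold change 4.78 ± 1.43 SE, adjusted p = 0.0307). In PA it was at 0.806, 7.86 and 2.73 FPKM in 1-cell embryos and 113 FPKM in the 8-cell embryo (log2 fold change 4.87 ± 1.43 SE, adjusted p = 0.0290). It rose in each method. The IVF call was lost without IVF 1-cell embryo 1 or 3 (adjusted p = 0.0696 and 0.0667) and the PA call without PA 1-cell embryo 1 or 3 (0.0787 and 0.0583). Each call was also lost in 3 of the 8 other settings (highest adjusted p = 0.0565 in IVF and 0.0933 in PA).

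SRSF6, an SR protein that binds exonic enhancers, was at 0.0365, 7.13 and 5.83 FPKM in IVF 1-cell embryos and reached 109.7 FPKM in the IVF 8-cell embryo, from blastomeres at 259.8, 3.98 and 65.2 FPKM. It rose (log2 fold change 4.84 ± 1.48 SE, adjusted p = 0.0344), and the call was lost without IVF 1-cell embryo 1 (adjusted p = 0.0949) and in 5 of the 8 other settings (highest 0.121). SRSF5 was at 0.387, 0.0207 and 0.145 FPKM in IVF 1-cell embryos and at 10.5 FPKM in the IVF 8-cell embryo (log2 fold change 3.29 ± 1.08 SE, adjusted p = 0.0472). This rise rested on 1 blastomere at 31.4 FPKM and was not called when any 1 of the 12 embryos of the 1- and 2-cell stages was left out (highest adjusted p = 0.102) or without the repeated cells (0.0833), and it was lost in 7 of the 8 other settings, with 1.45 under means of log values.

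SRSF11 had the highest mean level of the SR family. It was at 0.381, 1.27 and 0.160 FPKM in PA 1-cell, 8.83, 7.02 and 5.70 FPKM in PA 2-cell, 13.6, 54.5 and 43.7 FPKM in PA 4-cell embryos and 118 FPKM in the PA 8-cell embryo. Values at each later PA stage lay above every PA 1-cell embryo, and the 8-cell rise was called (log2 fold change 6.27 ± 1.97 SE, adjusted p = 0.0394), except without any 1 of the 6 zygotes (highest adjusted p = 0.0840) or without the repeated cells (0.0689), the filter (0.115) or with means of log values (0.0607). In IVF 4-cell embryos SRSF11 was at 0.213, 244 and 139.5 FPKM, high in embryos 2 and 3 only. SRSF7, which also links splicing to mRNA export, was at 4.05, 66.2 and 20.7 FPKM in IVF 4-cell embryos and at 0.112 FPKM in the IVF 8-cell embryo (log2 fold change -4.13 ± 1.41 SE, adjusted p = 0.0902). The SRSF7 difference was called without IVF 4-cell embryo 1 (adjusted p = 0.0246).

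**Figure D4:**
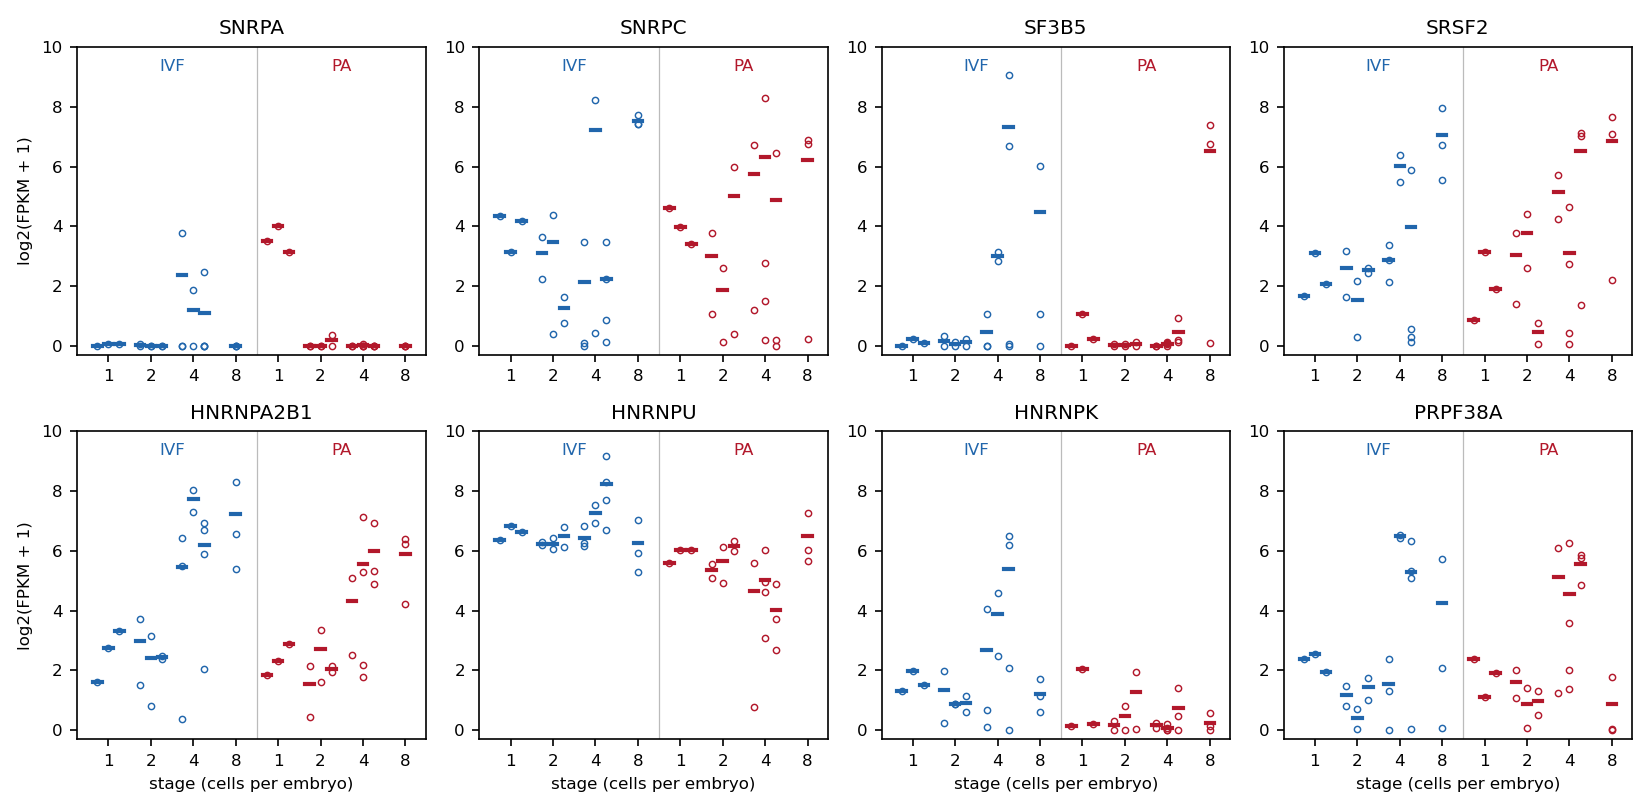
Levels of 8 members (SNRPA, SNRPC, SF3B5, SRSF2, HNRNPA2B1, HNRNPU, HNRNPK and PRPF38A) on the log2(FPKM + 1) scale (y axis) in every embryo (x axis, by method and stage). Circles are single blastomeres and bars are embryo means. SNRPA is present in the PA zygotes and near 0 in the IVF zygotes, and HNRNPA2B1 stands higher from the 4-cell stage on.

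The hnRNP genes contained the member called in most comparisons between IVF stages, HNRNPA2B1 (ENSSSCG00000036350, chr18:46203102-46216449), whose protein packages nascent transcripts and sorts RNAs. It was at 2.04, 5.74 and 9.01 FPKM in IVF 1-cell, 6.97, 4.36 and 4.42 FPKM in IVF 2-cell and 43.3, 210.0 and 71.7 FPKM in IVF 4-cell embryos and at 149.6 FPKM in the IVF 8-cell embryo. Every embryo of the 2 later stages lay above every earlier IVF embryo. It was the single member called from the IVF 2-cell to the 4-cell stage (log2 fold change 3.84 ± 0.70 SE, adjusted p = 0.0104), and it also rose from the 1-cell to the 8-cell stage (log2 fold change 4.67 ± 0.99 SE, adjusted p = 0.00385). The 4-cell call was lost without IVF 2-cell embryo 2 (adjusted p = 0.0505) or embryo 3 (0.0560). The 8-cell call held with any single embryo of the 1- to 4-cell stages left out, whereas the IVF 8-cell embryo itself could not be left out.

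In PA the levels of HNRNPA2B1 were 2.61, 3.92 and 6.33 FPKM, 1.91, 5.60 and 3.16 FPKM, 19.01, 45.8 and 63.3 FPKM and 58.4 FPKM from the 1-cell to the 8-cell stage. PA embryos of the 4- and 8-cell stages were likewise above all earlier PA embryos. The 4-cell over 2-cell difference was not called with all cells (log2 fold change 3.19 ± 0.70 SE, adjusted p = 0.0511) and was called without the repeated cells (3.57, adjusted p = 0.00407), and the 8-cell over 1-cell rise was called (log2 fold change 3.55 ± 0.99 SE, adjusted p = 0.0229) except without PA 1-cell embryo 1 (0.0587). No difference between IVF and PA was called for this gene at any stage tested.

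The genes HNRNPD, HNRNPH1 and HNRNPH2 rose from the PA 4-cell to the PA 8-cell stage. HNRNPD (AUF1), which binds AU-rich elements, was at 1.15, 0.0139 and 0.169 FPKM in PA 4-cell embryos and at 46.5 FPKM in the PA 8-cell embryo (log2 fold change 5.12 ± 1.41 SE, adjusted p = 0.0241), from blastomeres at 2.42, 0.0236 and 137 FPKM. HNRNPH1, which binds G-rich sequences, was at 3.18, 4.24 and 3.58 FPKM in PA 4-cell embryos and at 79.6 FPKM in the PA 8-cell embryo (log2 fold change 4.12 ± 1.21 SE, adjusted p = 0.0348), with all blastomeres high (87.4, 82.1 and 69.4 FPKM). HNRNPH2, its close paralogue, was at 1.71, 0.0441 and 0.170 FPKM and 30.0 FPKM (log2 fold change 4.38 ± 1.11 SE, adjusted p = 0.0147), and was also called over the PA 1-cell stage (log2 fold change 3.76 ± 1.11 SE, adjusted p = 0.0301). Of the 3 genes, HNRNPH1 alone was high in each PA 8-cell blastomere. PA 8-cell blastomere 1-2 held 8635 reads of HNRNPH1 and 0 of HNRNPH2, and whether reads were shared between these paralogues was not tested.

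With means of log values over blastomeres the log2 fold change over the PA 4-cell stage was 2.60 for HNRNPD (adjusted p = 0.360) and 3.17 for HNRNPH2 (adjusted p = 0.0594), neither of them called. The HNRNPH2 call was also lost with a pseudocount of 0.1 (adjusted p = 0.104), and that over the PA 1-cell stage in both settings (0.0937 and 0.124). The HNRNPH1 call was lost with a pseudocount of 0.1 (0.0747) and without the filter (0.0516). The HNRNPH1 call was also lost without PA 4-cell embryo 1 (adjusted p = 0.0584), and the call of HNRNPH2 over the PA 1-cell stage without PA 1-cell embryo 1 or 3 (0.0855 and 0.0876). In IVF the level of HNRNPH1 was 8.33, 9.87 and 6.53 FPKM in 1-cell, 3.64, 31.6 and 62.8 FPKM in 4-cell embryos and 89.5 FPKM in the 8-cell embryo, while HNRNPH2 was at 0.0831 FPKM in the IVF 8-cell embryo. Neither was called in IVF, but HNRNPH1 in IVF 8-cell over 1-cell embryos (log2 fold change 3.31 ± 1.21 SE, adjusted p = 0.0715) was called with the embryo block (3.89, adjusted p = 0.0404), with only the compared groups (3.31, adjusted p = 0.0164) and under median ratio scaling (6.60, adjusted p = 0.00532).

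IVF and PA embryos were compared at each stage to see what the paternal genome or the activation treatment changed. At the 2-cell stage no member was called (0.0% of all genes called, 3 members at an unadjusted p below 0.05), with a median log2 difference of 0.20 for members and 0.25 for all genes. Values above 0 were held by 64.8% of members and 64.4% of all genes. By family these were 13 of 14 hnRNP (12 of 14 under median ratio scaling), 5 of 6 LSM, 4 of 6 SNRP, 5 of 8 SF3, 5 of 11 SRSF and 3 of 9 PRPF genes. After LSM8, the lowest p there belonged to HNRNPD and PRPF4, with log2 differences of 2.64 and 1.98 (adjusted p = 0.844 and 0.888). At the 4-cell stage HNRNPU and HNRNPK were called, both higher in IVF (0.554% of all genes called), with medians of 0.49 and 0.23, or 0.76 and 0.58 without the repeated cells. The median of the members became -0.17 under median ratio scaling.

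HNRNPU (ENSSSCG00000010877, chr10:17476877-17497130), a scaffold protein that ties RNA to chromatin, was at 85.8, 153 and 301 FPKM in the fertilized and 24.2, 31.6 and 15.4 FPKM in the parthenogenetic 4-cell embryos (log2 difference 2.74 ± 0.51 SE, adjusted p = 0.0327). HNRNPK (ENSSSCG00000022760, chr10:30975671-30987956), which binds C-rich RNA and DNA, was at 5.399, 13.9 and 41.4 FPKM in the fertilized embryos and at 0.116, 0.0545 and 0.678 FPKM in the parthenogenetic ones (log2 difference 3.67 ± 0.76 SE, adjusted p = 0.0426). The methods did not overlap for either gene. Without the repeated cells the log2 differences were 4.04 (adjusted p = 0.00765) and 3.70 (0.00878).

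These 2 calls were close to the threshold. HNRNPU was not called without any 1 of the IVF 1-cell, IVF 2-cell, PA 1-cell embryos or PA 4-cell embryo 3 (highest adjusted p = 0.0618), and HNRNPK lost its call in 15 of 18 such fits (highest 0.0716), keeping it without IVF 4-cell embryo 1 or 2 or PA 2-cell embryo 3. Under median ratio scaling the differences kept their sign and were not called (1.75, adjusted p = 0.218, and 3.26, adjusted p = 0.0516). HNRNPK was also not called with a pseudocount of 0.1 (0.0706) or means of log values (2.66, adjusted p = 0.107). Before the 4-cell stage the levels of HNRNPU were in the same order, at 74.6, 74.9 and 89.6 FPKM in the IVF 2-cell embryos and 39.7, 49.0 and 70.9 FPKM in the PA 2-cell embryos, without a call. HNRNPK was at 1.33 FPKM in the IVF 8-cell embryo, a difference from the IVF 4-cell stage that was called without IVF 4-cell embryo 1 (adjusted p = 0.0413). For HNRNPU the order at the 8-cell stage was the other way, with 75.8 FPKM in the IVF and 88.4 FPKM in the PA embryo.

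Whether a step between stages differed between methods was tested as an interaction. None of the 54 members passed from the 1-cell to the 2-cell stage (0.0% of all genes called, 1 member at an unadjusted p below 0.05), from the 2-cell to the 4-cell stage (0.0% of all genes, 4 members) or from the 4-cell to the 8-cell stage (2.86% of all genes, 13 members). The lowest p of each step belonged to SNRPA (log2 difference of steps 3.46 ± 0.69 SE, adjusted p = 0.309), HNRNPK (log2 difference of steps 3.27 ± 1.08 SE, adjusted p = 0.893) and LSM4 (log2 difference of steps -3.22 ± 0.90 SE, adjusted p = 0.0590). The 4- to 8-cell interaction of LSM4 was called without IVF 1-cell embryo 2, IVF 4-cell embryo 2 or PA 1-cell embryo 3 (adjusted p = 0.0375, 0.0498 and 0.0390), without the filter (0.0158) or under median ratio scaling (0.000223). That of SNRPA was called without the filter (0.0236) and with means of log values (0.0204).

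Each method had 1 embryo at the 8-cell stage, so no test between them was made. Among the genes called in either method, LSM4 was at 1.14 FPKM in IVF and 18.4 FPKM in PA, LSM1 at 0.183 and 75.6 FPKM, HNRNPH2 at 0.0831 and 30.0 FPKM, and SF3B5 at 21.5 and 91.3 FPKM. HNRNPH2 lies on the X chromosome, and the paper regarded the IVF embryo as male and the PA embryo as female. SRSF6 was at 109.7 FPKM in IVF and 34.4 FPKM in PA, and HNRNPA2B1 at 149.6 and 58.4 FPKM. The summed level was 1249 and 1393 FPKM. LSM4, LSM1, HNRNPH2 and SF3B5 were called in PA only and SRSF6 in IVF only, so their order between methods follows in part from that choice. Single blastomeres held sums of 931 to 1852 FPKM in the IVF and 684 to 1910.2 FPKM in the PA embryo.

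Sister blastomeres were compared over the members as a description. The correlation of log2(FPKM + 1) between sisters was 0.591 to 0.802 in IVF and 0.370 to 0.619 in PA 2-cell embryos. It was 0.276 to 0.589 in IVF and 0.242 to 0.611 in PA 4-cell embryos, and 0.571 to 0.620 (IVF) and 0.299 to 0.588 (PA) at the 8-cell stage. Over all tested genes the sisters correlated at 0.737 to 0.801 in IVF and 0.609 to 0.672 in PA 2-cell embryos, and at 0.262 to 0.573 in IVF and 0.357 to 0.450 in PA 4-cell embryos. At the 8-cell stage all genes gave 0.455 to 0.505 (IVF) and 0.444 to 0.467 (PA). The ranges of members and of all genes overlapped in 5 of the 6 groups, and in the IVF 8-cell embryo the 3 member values lay above those of all genes. Without the repeated cells the PA 4-cell ranges were 0.261 to 0.610 for members and 0.357 to 0.428 for all genes. Sisters share an embryo and a depth range, and genes are not independent points.

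Other splicing genes were described from 6 lists, comprising further snRNP proteins, catalytic and Prp19 complex factors, splicing kinases, exon junction and export factors, snRNP assembly factors and other splicing regulators. Of 153 genes, 135 were in the table and 114 were tested. The share called is set beside that of all genes in each comparison. In IVF 4-cell over 2-cell embryos 4 rose and none fell (3.51% against 1.11%), CLK1 (log2 fold change 3.63, adjusted p = 0.00928), a kinase that releases SR proteins from speckles, and DHX38, EIF4A3 and SRRM1. In IVF 8-cell over 4-cell embryos 3 rose and 5 fell (7.02% against 6.97%), with SNRNP200, the helicase that unwinds U4 from U6, among the former (4.49, adjusted p = 0.00498) and CDC5L, of the Prp19 complex, among the latter. In IVF 8-cell over 1-cell embryos 8 rose and 7 fell (13.2% against 14.3%), including SRPK1, the kinase that sends SR proteins to the nucleus, which fell (-5.26, adjusted p = 0.000278).

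In PA 4-cell over 2-cell embryos BCAS2, a Prp19 complex subunit, rose (4.17, adjusted p = 0.0193) and no other gene of the lists was called (0.877% against 0.394%). In PA 8-cell over 4-cell embryos 6 rose and 6 fell (10.5% against 9.99%), and in PA 8-cell over 1-cell embryos 9 rose and 9 fell (15.8% against 13.8%). CDC40, a second-step factor, fell in both (-5.41, adjusted p = 0.000182 over the 4-cell stage). In IVF over PA at the 4-cell stage 3 were called (2.63% against 0.554%), all higher in IVF, namely CRNKL1, DHX38 and ZMAT5 (3.77, 3.35 and 3.62). In the 4- to 8-cell interaction CDC40, RBM22 and NOVA1 were called (4.71, -8.24 and -4.08), 2.63% against 2.86%. None of the 114 genes was called in the 2-cell over 1-cell comparisons or between methods at the 1- and 2-cell stages.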

How the data were processed

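Single cells were lysed and their transcripts, polyadenylated or not, were amplified and sequenced without molecular identifiers. The authors aligned reads to the pig genome Sscrofa11.1 with HISAT2, used StringTie for transcripts and HTSeq for counting, and deposited 1 table of FPKM values for 42 cells, a share of mapped fragments divided by gene length. Tool versions and the use of strand are not given in the sources used here. Since the deposited values are FPKM and not counts, the count test of the study's methods was replaced by limma 3.58.1 (R 4.3.3) with an intensity trend.

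Blastomere values were averaged to 20 embryos, log2(FPKM + 1) was taken, and genes with at least 1 FPKM in at least 3 cells (8116) were fitted in 1 model of 8 groups. Embryo and blastomere numbers were read from the sample descriptions, which do not spell out their order, so the unit of replication rests on that reading. Adjusted p-values are Benjamini-Hochberg over all tested genes of each of 14 contrasts, and a called gene also changed at least 2-fold. With 1 embryo at the 8-cell stage, its error comes from the other groups. Low FPKM values were whole multiples of 1 read for 99.707% of expressed genes (tolerance 0.01 read), which gave the depth.

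Named members were the called ones, the 3 lowest p-values where none was called, and the highest member of each family. Members, lists and rules were chosen with earlier results of these data known. The values of 1 member are not reported here, although it enters the counts and sums. The fit was tested on simulated data. Embryo numbers were not taken to pair the samples. Alternatives were another pseudocount (0.1), no filter, 2 other scalings, means of log values, fits of only the compared groups, an embryo number block, omission of the 2 repeated cells and omission of each embryo. Tables were made with pandas 2.3.3 and figures with matplotlib 3.10.9. No column of the table lacked a sample.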

Additional observations from a re-analysis of the deposited data

Results flagged for a closer look

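Single blastomeres stood far from the rest of their group, by Dixon's test at the 95% level, in 15 of 35 groups of cells examined for 8 members and the sum. Over all 23 named members and the sum it was 49 of 95 groups, where chance gives about 1 in 20 for normally distributed values. The rate for skewed FPKM values was not established. The summed level was 280.5 FPKM in IVF 2-cell blastomere 2-1, with the nearest other cell at 445.8 FPKM.

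Among PA 2-cell blastomeres, LSM1 was at 29.8 FPKM in 3-2, HNRNPA2B1 at 9.12 FPKM in 2-2, HNRNPK at 2.85 FPKM in 3-1 and SNRPC at 62.8 FPKM in 3-1. Among IVF 2-cell blastomeres, SRSF11 was at 28.9 FPKM in 1-1. In IVF 4-cell blastomeres SF3B5 was at 539.7 FPKM in 3-1, HNRNPU at 579 FPKM in 3-4 and SNRPC at 296 FPKM in 2-2. In PA 4-cell blastomeres LSM1 was at 5.19 FPKM and U2AF2 at 0.0579 FPKM in 2-3, SRSF11 at 153 FPKM and SNRPC at 309 FPKM in 2-2, and HNRNPK at 1.65 FPKM and SF3B5 at 0.895 FPKM in 3-1. All but the sum were high for their group, and no cell of these groups was left out of the tests for it. The U2AF2 value was 3 reads and that of SF3B5 in the PA blastomere 10 reads, so these flags rest on values near 0.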

How the results depend on the processing

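Counts of called members depended on several choices. They stand without the share of all genes called in the same fit, so they do not show a change particular to the members. With a pseudocount of 0.1 they were 3 (IVF 8-cell over 1-cell), 4 (PA 8-cell over 4-cell) and 1 (IVF over PA at 4-cell). Without the filter they were 2 (IVF 8-cell over 1-cell), 4 (PA 8-cell over 4-cell), 1 (1- to 2-cell interaction) and 2 (4- to 8-cell interaction). With nuclear genes at the same total 2 were called in IVF 8-cell over 1-cell and 2 in PA 4-cell over 2-cell embryos. Median ratio scaling gave 3 in IVF 8-cell over 4-cell, 13 in IVF 8-cell over 1-cell, 7 in PA 4-cell over 2-cell, 22 in PA 8-cell over 1-cell embryos and 5 in the 4- to 8-cell interaction. Means of log values gave 3 in IVF 4-cell over 2-cell, 1 in IVF 8-cell over 4-cell, 3 in PA 8-cell over 4-cell, 4 in PA 8-cell over 1-cell embryos, 1 in IVF over PA at 4-cell and 1 in the 1- to 2-cell interaction. Fits of only the compared groups gave 11 in IVF 8-cell over 1-cell and 0 in IVF 4-cell over 2-cell, PA 2-cell over 1-cell, PA 8-cell over 4-cell and IVF over PA at 1-cell and 4-cell. Without the repeated cells 3 were called in IVF 8-cell over 1-cell and 2 in PA 4-cell over 2-cell embryos.

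With the embryo number as a replicate block 1 member was called in PA 4-cell over 2-cell embryos (HNRNPA2B1, adjusted p = 0.0422), and no other count moved by over 1.5 times. Deviations from group means were correlated between embryos of different groups. They gave -0.041 to 0.355 for same-numbered and -0.266 to 0.113 for differently numbered embryos, so the numbers were not taken to pair the samples. The highest values, 0.355 and 0.28, joined PA 2-cell with PA 4-cell embryos 1 and 2, which hold the repeated cells.

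Leaving out 1 embryo gave 0 to 8 calls in IVF 4-cell over 2-cell, 0 to 2 in IVF 8-cell over 4-cell, 1 to 8 in IVF 8-cell over 1-cell, 0 to 1 in PA 2-cell over 1-cell, 0 to 3 in PA 4-cell over 2-cell, 6 to 8 in PA 8-cell over 4-cell, 4 to 11 in PA 8-cell over 1-cell embryos, 0 to 1 and 0 to 7 in IVF over PA at 1-cell and 4-cell, and 0 to 1 and 0 to 3 in the 1- to 2-cell and 4- to 8-cell interactions. Of 25 calls of named members, 8 held in all 18 such fits, none of which omitted an 8-cell embryo. The summed level as a share of nuclear FPKM gave log2 ratios of 1.01 (IVF 8-cell over 1-cell), 0.71 (PA 8-cell over 4-cell), 1.49 (PA 8-cell over 1-cell) and -0.33 (IVF over PA at 8-cell), and as a median over blastomeres 0.98 (IVF 8-cell over 1-cell), 2.02 (PA 8-cell over 1-cell) and -0.72 (IVF over PA at 8-cell). Causes of these changes were not tested. The median SE of members was 0.87 on the log2 scale between groups of 3 and 1.24 against an 8-cell embryo. In the median member 1 FPKM was 49.6 to 185 reads across cells. What limits the precision was not tested.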
